A study of Homo sapiens with 17 samples.

Results

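A set of 10 genes is described here, found by symbol among the 58870 entries of the count table. They are 5 transcription factors that drive epithelial-mesenchymal transition (ZEB1, ZEB2, SNAI1, SNAI2 and TWIST1), 3 cadherins (CDH1, CDH2 and CDH11), the filament protein vimentin (VIM) and the matrix protein fibronectin (FN1). Their values were read in all 17 libraries. MDA-MB-231 is an established human triple-negative breast cancer line, and its cells were given 45 nM TRAIL, a death ligand of the TNF family, at a dose kept low so that living cells would be measured. RNA was taken at 0, 1, 3, 6, 12 and 24 h, with 3 libraries at each time except 1 h, which has 2. Every library carries the same treatment label, including those at 0 h. Since 0 libraries were from untreated cells at a later time, time with TRAIL and time in culture cannot be told apart in any comparison. Nothing in the labels says that replicates came from separate cultures, so p-values measure the spread between these libraries.

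Epithelial-mesenchymal transition is the change by which sheet-forming epithelial cells loosen their contacts and take on a motile, matrix-producing state. The zinc-finger proteins of the Snail and ZEB families and the basic helix-loop-helix protein TWIST1 bind E-box motifs and repress epithelial genes such as CDH1, which encodes E-cadherin. The ZEB factors and the miR-200 microRNAs repress each other, and N-cadherin, cadherin-11, vimentin and fibronectin are common markers of the mesenchymal state. Basal B breast cancer lines, the class that the labels name for MDA-MB-231, are known for such a state before any treatment.

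The microRNA sequences are shown because their seeds (bases 2 to 8, in capitals) name the motif that links the family to 2 of the genes. They are from RefSeq (GRCh38.p14), on chromosome 1 or 12, and fall into 2 seed groups. The first group shares AAUACUG and the second AACACUG.
hsa-miR-200b-3p: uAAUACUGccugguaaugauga
hsa-miR-200c-3p: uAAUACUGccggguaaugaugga
hsa-miR-429: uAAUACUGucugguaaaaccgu
hsa-miR-200a-3p: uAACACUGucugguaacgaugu
hsa-miR-141-3p: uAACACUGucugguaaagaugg
The matching DNA words are CAGTATT and CAGTGTT. One match to the first word in the 3′ UTR of ZEB1 (chr10:31527612-31527641, plus strand) and one in that of ZEB2 (chr2:144389051-144389080, minus strand) are printed with the match in capitals, on GRCh38 as annotated in GENCODE 29.
ZEB1 site: tctggcattgttttatcttatCAGTATTat
ZEB2 site: ggtgcccgcactaccatacatCAGTATTtt
In the annotated 3′ UTR of its longest coding transcript, ZEB1 had 6 matches to CAGTATT and 3 to CAGTGTT, in 2549 bases. ZEB2 had 5 and 4, in 5370 bases. FN1 had 2 matches in all, and SNAI2 and CDH11 had 1 each. Of 19100 coding genes, 6 (0.0314%) had at least 9 matches and 27.99% had at least 1. Among the 4273 genes with a 3′ UTR at least as long as that of ZEB1, these shares were 0.140% and 66.3%. The libraries were poly(A)-selected, so mature microRNAs were not measured. MIR200CHG, the host transcript of miR-200c and miR-141, had at most 2 counts in any library, and MIR205HG had 0.

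The promoter of 1 ZEB1 start site (chr10:31318966-31319215, plus strand, RefSeq on GRCh38.p14) is shown because it holds the E-box bound by Snail and ZEB proteins. It was picked as the ZEB1 start with the most matches. The promoters at hand for other genes of the set held none, but those genes had only 1 or 2 starts each, against 7 of ZEB1. The capitals mark CAGGTG or its reverse complement CACCTG.
ZEB1 promoter: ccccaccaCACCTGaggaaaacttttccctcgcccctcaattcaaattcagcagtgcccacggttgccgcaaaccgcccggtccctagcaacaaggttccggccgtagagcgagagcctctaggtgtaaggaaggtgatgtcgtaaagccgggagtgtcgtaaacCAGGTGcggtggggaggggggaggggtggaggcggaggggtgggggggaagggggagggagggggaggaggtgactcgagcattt
The first base of the motif lies at -242 and -85 from the start site, and another match outside the printed stretch lies at 34. It was searched on both strands, from 250 bases before to 50 after each start. It was found at 2 of 7 ZEB1 starts (28.6%) and at 20.6% of 35116 promoters of all genes. Promoter sequences were at hand for 5 of the 10 genes, and those of VIM, FN1, CDH2 and ZEB2 (1, 1, 2 and 1 starts) held no match. The NF-κB consensus was found at 1 of the 7 ZEB1 starts and at 11.3% of all promoters. These matches describe the sequence and no binding was measured.

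The libraries held 13731520 to 19234924 counts each. Levels are given in CPM, counts relative to the TMM-scaled library size, which corrects for composition (factors 0.939 to 1.06). A gene was called when its p-value in the quasi-likelihood test of edgeR, adjusted by the Benjamini-Hochberg method over 15365 genes, was below 0.05. The libraries at 6 h and 24 h gave relatively more counts to long transcripts than those at 3 h. Taken as each library's deviation from the average library, the change in log2 CPM per doubling of transcript length was 0.016 to 0.11 at 6 h, 0.017 to 0.15 at 24 h, -0.15 to -0.066 at 3 h and -0.076 to -0.021 at 0 h. Mitochondrial transcripts took 3.97% to 5.45% of counts at 6 h and 3.66% to 4.14% at 24 h, against 5.53% to 8.37% at 0 h. Replicates 2 and 3 at 6 h, and likewise at 24 h, were closer to each other than the other replicate pairs (chi-square per gene of 1.55 and 1.68, against 3.86 to 14.6 in the other 14 pairs). Those 2 values are the nearest to what counting noise alone gives, so these replicates may be less independent than the others, which was not tested. They were kept as separate libraries. Where removing the trends with length and GC content, or averaging these pairs, ended a call among the 10 genes or moved a called value by more than 1.5 times, this is given beside the result.

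The cells carried the markers of their label. CD44, a hyaluronan receptor of basal B lines, had 1219 to 1557 CPM, and VIM is described below. Of 6 luminal breast markers, ESR1, PGR and FOXA1 had at most 2, 1 and 1 counts in any library, whereas ERBB2 (56.4 to 70.9 CPM), EPCAM (13.1 to 19.3 CPM) and GATA3 (6.97 to 12.1 CPM) were detected. The luminal list summed to 91.2 to 96.2 CPM at 0 h, 80.6 to 85.7 CPM at 6 h and 92.5 to 95.2 CPM at 24 h. Markers of 3 cell types that a culture of this line should lack were low in sum. The 6 leukocyte markers together had 1.25 to 2.44 CPM, with CD3E at 0 and PTPRC at no more than 5 counts. CD14 was the highest of them, at 0.730 to 1.98 CPM and up to 32 counts. The 6 fibroblast markers had 18.1 to 26.03 CPM, most of it from collagen I genes, with at most 1 count of DCN and 2 of COL3A1. PDGFRB had 1.71 to 4.57 CPM. The 4 endothelial markers had 3.36 to 4.98 CPM at 0 h, 2.37 to 3.11 CPM at 3 h, below every 0 h library, and 6.34 to 7.44 CPM at 24 h, above every 0 h library. Of these 4, CDH5 and VWF had at most 2 and 5 counts, whereas KDR (1.41 to 4.51 CPM) and PECAM1 (0.789 to 3.98 CPM) were detected. The part of these markers in the 3 h and 24 h results was not tested. In bulk RNA, fewer cells of a type and less RNA per cell cannot be told apart.

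At 0 h the mesenchymal markers VIM and FN1 were the most abundant of the set. Per kilobase of the longest transcript, VIM stood at 1259 CPM and FN1 at 129 CPM. For VIM, FN1 and SNAI2 that is another transcript than the coding one searched above. Whether other lengths change the order of close genes was not tested. SNAI2 (15.4 CPM per kb) and CDH11 (14.5) followed with libraries that overlapped, then ZEB1 at 6.80. ZEB2 (0.935) and SNAI1 (0.923) also overlapped. CDH2 (0.182) and CDH1 (0.0976) were the lowest genes with counts. The libraries of all other neighbours in this order did not overlap. TWIST1 had 0 counts in all 17 libraries. In a single library a count of 0 allows up to 3 counts, that is 0.151 to 0.233 CPM, by counting error alone. The 0 counts of all 17 libraries together allow a lower mean level than that. By 24 h CDH11 (20.9 CPM per kb) stood above SNAI2 (10.1) with no overlap. ZEB1 (9.14) overlapped SNAI2 at that time, and SNAI1 (1.47) overlapped ZEB2 (1.06).

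**Figure D1:**
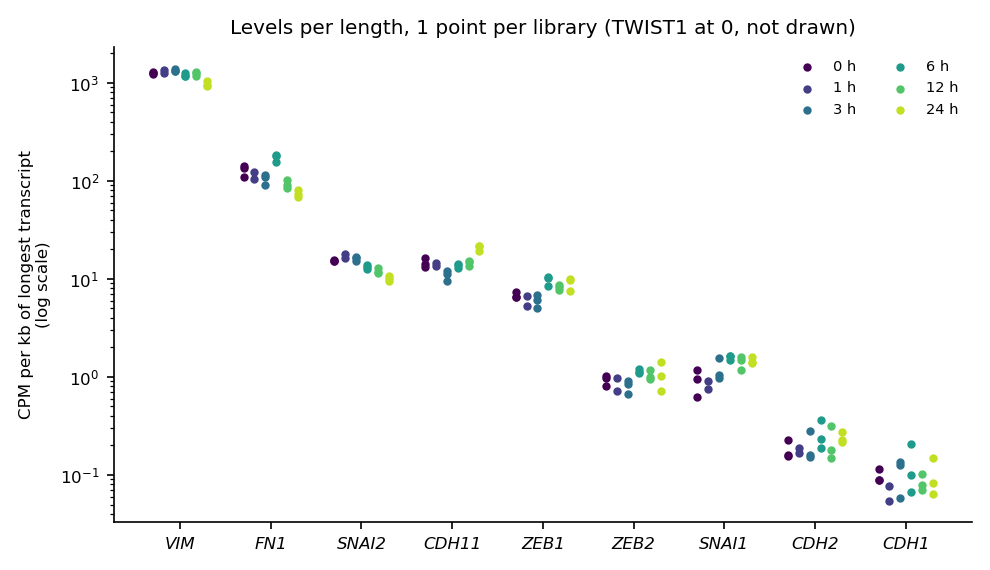
Level of each gene with counts in CPM per kilobase of its longest transcript (log scale), with 1 point per library, coloured by time. VIM and FN1 lie highest and CDH1 and CDH2 lowest, while CDH11 moves above SNAI2 by 24 h.

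The filter on low counts passed 9 of the 10 genes, all but TWIST1, and these were tested. Over all times together 6 of the 9 changed (VIM, FN1, CDH11, SNAI1, SNAI2 and ZEB1, edgeR F-test), where 64.2% of all genes tested did. ZEB2, CDH1 and CDH2 were not called (adjusted p = 0.168, 0.698 and 0.671). The comparisons with 0 h share the 0 h libraries and so are not independent of each other. At 1 h, 0 of the 9 were called in either direction and 0 had an unadjusted p below 0.05, and DESeq2 and limma-voom also called 0. Of all genes 0.260% were higher and 0.0521% lower at that time. At 3 h, 0 were higher (9.04% of all genes) and 1 was lower (8.71%), with 2 at an unadjusted p below 0.05. At 6 h, 3 were higher (16.9%) and 1 lower (13.2%). At 12 h, 0 were higher (5.96%) and 2 lower (6.48%), with 4 at an unadjusted p below 0.05. At 24 h, 3 were higher (18.0%) and 3 lower (17.1%). The median log2 fold change of the 9 was -0.15, 0.056, 0.34, -0.0053 and 0.17 at 1, 3, 6, 12 and 24 h, where the medians of all genes lay between -0.022 and -0.0017. The medians at 6 h and 24 h were the values of CDH1 and ZEB2, which were not called at those times.

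**Figure D2:**
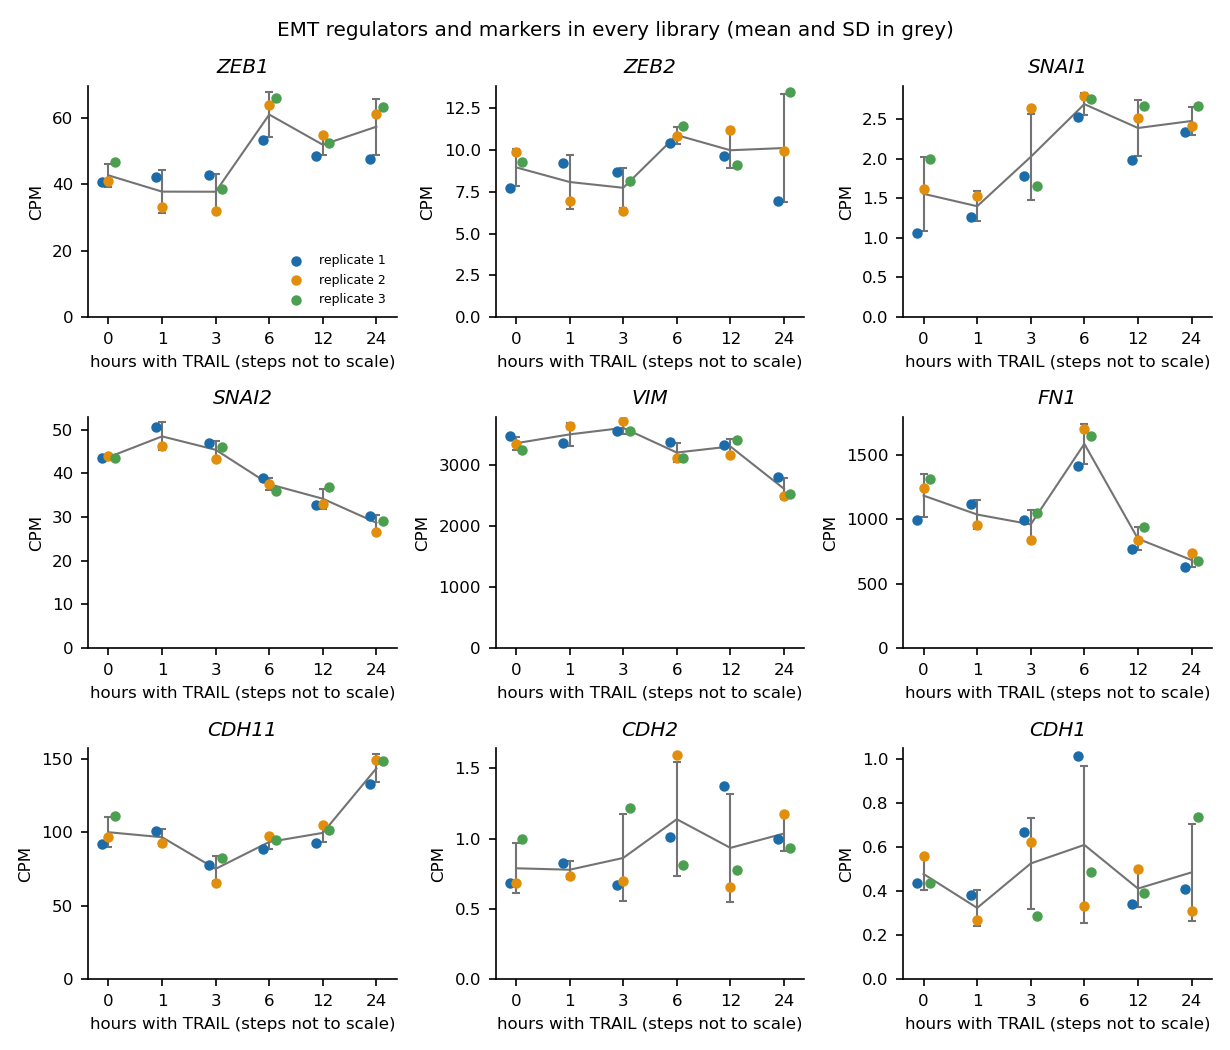
CPM of the 9 tested genes in every library (points), with the mean and SD at each time in grey; the horizontal steps between hours are not to scale and each vertical axis starts at 0. FN1 peaks at 6 h and is lowest at 24 h, SNAI2 is lower at each time from 6 h on, and CDH11 is lowest at 3 h and highest at 24 h.

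ZEB1 (chromosome 10, 31318495 to 31529814, plus strand, GRCh38) encodes a repressor of CDH1 and of other epithelial genes. It stood at 40.5, 40.8 and 46.6 CPM at 0 h, at 53.2, 63.7 and 65.8 CPM at 6 h, and at 47.5, 61.2 and 63.1 CPM at 24 h. All 6 of the later libraries lay above all 3 at 0 h, but replicate 1 at 24 h did so by little. ZEB1 rose by 0.52 on the log2 scale at 6 h (SE 0.122, adjusted p = 0.00477) and by 0.42 at 24 h (SE 0.122, adjusted p = 0.0126). At 12 h its libraries (48.5, 54.6 and 52.4 CPM) also lay above those at 0 h, and the log2 fold change of 0.28 was not called. It passed in a fit of only those groups (adjusted p = 0.0267) and with no filter (0.00982, in a fit of 29899 genes, many with few counts). With length and GC trends removed the changes were 0.34 at 6 h and 0.22 at 24 h, both still called. The 24 h call was lost without 0 h replicate 1 (adjusted p = 0.0576), without 24 h replicate 2 (0.0582) or 3 (0.0638), and with those 2 averaged (0.0723). The step from 3 h to 6 h was 0.69 (adjusted p = 3.69e-04), and 0.44 with the trends removed.

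ZEB1 shares 366 exonic bases with the antisense gene ZEB1-AS1, and its counts were not whole in 11 libraries. The strand setting of the counting is not given in the sources used here. ZEB1-AS1 had 42 to 107 counts per library and was not called at any time, with a log2 fold change of -0.039 at 6 h. ZEB2 (chromosome 2, 144364364 to 144524583, minus strand), the paralog of ZEB1, lay at 7.72, 9.90 and 9.27 CPM at 0 h and at 10.4, 10.8 and 11.4 CPM at 6 h. At 24 h it was spread over 6.97, 9.92 and 13.5 CPM, so that its lowest and highest libraries bracketed those at 0 h. It was not called against 0 h at any time. Its 24 h log2 fold change of 0.17 has a 95% interval of -0.22 to 0.55, and was 0.037 with the close pairs averaged and -0.091 with length and GC trends removed. Its step from 3 h to 6 h, 0.49, passed narrowly (adjusted p = 0.0421). The call was lost with the trends removed (0.20, adjusted p = 0.280), with upper-quartile scaling (0.0657), with the pairs averaged (0.0748) and without any 1 of 7 libraries. These were 0 h replicate 3 (0.0510), 3 h replicates 2 (0.176) and 3 (0.0635), 6 h replicates 1 (0.0554), 2 (0.0813) and 3 (0.117), and 24 h replicate 2 (0.0514).

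SNAI1 (chromosome 20, 49982999 to 49988886, plus strand) and SNAI2 (chromosome 8, 48917604 to 48921740, minus strand) encode Snail and Slug, close relatives that bind the same E-box. SNAI1 was rare, at 17 to 51 counts per library. It stood at 1.06, 1.62 and 1.99 CPM at 0 h, at 2.53, 2.79 and 2.75 CPM at 6 h, and at 2.34, 2.42 and 2.67 CPM at 24 h. The libraries at 6 h and 24 h all lay above those at 0 h, whose replicate 1 was the lowest of the 17. SNAI1 rose by 0.79 on the log2 scale at 6 h (SE 0.226, adjusted p = 0.0131) and by 0.67 at 24 h (SE 0.229, adjusted p = 0.0287). At 12 h (1.99, 2.51 and 2.67 CPM) its lowest library reached into the 0 h range, and the log2 fold change of 0.62 was not called. It was called at 12 h without 0 h replicate 3 (0.83, adjusted p = 0.0422) and with the length and GC trends removed (0.74, adjusted p = 0.0294).

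Without 0 h replicate 1 both SNAI1 calls were lost, at 0.57 (adjusted p = 0.0853) for 6 h and 0.45 (adjusted p = 0.165) for 24 h. They were also lost with the close pairs averaged (adjusted p = 0.0576 and 0.0832). The 24 h call was lost under DESeq2 (adjusted p = 0.0672), and without 0 h replicate 2 (0.0553), 24 h replicate 2 (0.0621) or 24 h replicate 3 (0.0897).

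SNAI2 moved the other way and with less scatter. Its level was 43.5, 44.0 and 43.6 CPM at 0 h, 38.9, 37.5 and 36.0 CPM at 6 h, 32.7, 33.0 and 36.9 CPM at 12 h, and 30.3, 26.6 and 29.1 CPM at 24 h. None of these 9 later libraries reached the 0 h range, and all 3 at 24 h lay below every other library. SNAI2 fell by 0.35 at 12 h (SE 0.07001, adjusted p = 0.00292) and by 0.61 at 24 h (SE 0.0714, adjusted p = 7.6e-06) on the log2 scale. These calls held under every alternative run. The smaller change at 6 h, -0.22 (adjusted p = 0.0225), was lost with no filter (adjusted p = 0.0649), with the close pairs averaged (0.0627), and without any 1 of 4 libraries. These were 0 h replicate 1 (0.0544), 0 h replicate 2 (0.0545), 6 h replicate 2 (0.0632) and 6 h replicate 3 (0.104).

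Set within each library, where scaling between libraries plays no part, SNAI1 had 2.43 to 4.57 counts per 100 of SNAI2 at 0 h (mean 3.56 ± 1.07, SD, n = 3). It had 6.49 to 7.63 at 6 h, 6.08 to 7.61 at 12 h and 7.72 to 9.17 at 24 h (mean 8.66 ± 0.810, n = 3). The libraries from 6 h on did not overlap with 0 h. This ratio was chosen after the values were seen and is a description. An exact permutation test of its log2 values against 0 h gave p = 0.1 at 6, 12 and 24 h. That is the lowest p that 3 against 3 libraries allow, and the adjusted p over 10 ratio comparisons was 0.167.

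VIM (chromosome 10, 17228259 to 17237593, plus strand) encodes the intermediate filament of mesenchymal cells and took up to 0.349% of a library's counts. It stood at 3469, 3350 and 3253 CPM at 0 h and at 2805, 2495 and 2533 CPM at 24 h. Every 24 h library lay below the other 14. VIM fell by 0.36 on the log2 scale at 24 h (SE 0.0627, adjusted p = 3.05e-04) and was not called against 0 h at the earlier times, where its means lay between 3205 and 3610 CPM. The step from 12 h to 24 h was -0.34 (adjusted p = 0.00236). A step of -0.17 from 3 h to 6 h (adjusted p = 0.0327) was lost when libraries were scaled by size only (-0.10, adjusted p = 0.133), with no filter (0.0841), with the close pairs averaged (0.112), and without 3 h replicate 1 (0.0542), 3 h replicate 2 (0.104), 6 h replicate 2 (0.119) or 6 h replicate 3 (0.118). VIM shares 641 exonic bases with VIM-AS1, which had 101 to 152 counts per library, and its counts were not whole in all 17 libraries. VIM-AS1 was not called at any time.

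FN1 (chromosome 2, 215360440 to 215436172, minus strand) encodes fibronectin, the matrix protein bound by integrins. Its level was 996, 1245 and 1314 CPM at 0 h, rose to 1413, 1699 and 1650 CPM at 6 h, and then fell to 767, 837 and 945 CPM at 12 h and 631, 742 and 680 CPM at 24 h. The 6 h libraries lay above and the 12 h and 24 h libraries below all 3 at 0 h. FN1 was the gene of the set with the widest range, with time means that differed 2.32-fold. Against 0 h it differed by 0.42 on the log2 scale at 6 h (SE 0.113, adjusted p = 0.0104), -0.48 at 12 h (SE 0.113, adjusted p = 0.0114) and -0.79 at 24 h (SE 0.114, adjusted p = 9.9e-05).

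The rise at 6 h was the less certain of these. It was lost without 0 h replicate 1 (0.31, adjusted p = 0.0565), with the close pairs averaged (0.37, adjusted p = 0.0590) and with the length and GC trends removed (0.23, adjusted p = 0.0549). With those trends removed and the replicate number fitted as a block, it was still called (0.23, adjusted p = 0.0441). FN1 has a long transcript of 9171 bases. The 12 h call was lost without 12 h replicate 2 (-0.47, adjusted p = 0.0544), and the 24 h call held under every alternative run. Between neighbouring times FN1 rose from 3 h to 6 h by 0.72 (adjusted p = 1.59e-04, and 0.47 with the trends removed) and fell from 6 h to 12 h by 0.90 (adjusted p = 4.3e-05). At 3 h its log2 fold change of -0.30 was not called, but passed with upper-quartile scaling (adjusted p = 0.0473), under DESeq2 (0.0376), with the length and GC trends removed (0.0499) and without 0 h replicate 1 (0.0152). It passed with no filter too, at a similar value (-0.32) but a far lower adjusted p (3.2e-05). That fit took in 29899 genes, many with few counts, and why its p is so low was not tested.

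CDH11 (chromosome 16, 64943753 to 65126112, minus strand) encodes cadherin-11, the adhesion protein of mesenchymal cells also called OB-cadherin, and was the only cadherin of the 3 at an appreciable level. It stood at 91.9, 96.7 and 111 CPM at 0 h, dropped to 77.4, 65.5 and 82.1 CPM at 3 h, and reached 133, 149 and 149 CPM at 24 h. No library at 3 h or 24 h overlapped with 0 h, and those at 6 h (88.3, 97.0 and 94.7 CPM) and 12 h (92.8, 105 and 101 CPM) lay around the 0 h level. CDH11 fell by 0.41 at 3 h (SE 0.0847, adjusted p = 0.00253) and rose by 0.52 at 24 h (SE 0.0823, adjusted p = 1.39e-04) on the log2 scale. Both calls held under every alternative run, and the 24 h value was 0.31 with length and GC trends removed.

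With those trends removed CDH11 was also called lower at 6 h (-0.26, adjusted p = 4.9e-04), where the fit without that step gave -0.099. The rise from 3 h to 6 h of 0.31 (adjusted p = 0.00565) became 0.095 (adjusted p = 0.153). The rise from 12 h to 24 h was 0.53 (adjusted p = 6.44e-04). The drop from 1 h to 3 h, -0.36 (adjusted p = 0.0257), rested on the 2 libraries at 1 h, and was lost in a fit of only those groups (adjusted p = 0.0881). It was lost too without 1 h replicate 1 (0.281), 1 h replicate 2 (0.0595), 3 h replicate 1 (0.0565) or 3 h replicate 2 (0.110).

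CDH11 and FN1, both mesenchymal markers, were set against each other in the same way, again after their values were seen. CDH11 had 7.77 to 9.23 counts per 100 of FN1 at 0 h (mean 8.49 ± 0.732, SD, n = 3), 5.71 to 6.25 at 6 h, 10.7 to 12.5 at 12 h and 20.1 to 21.9 at 24 h (mean 20.99 ± 0.872, n = 3). The 6 h libraries lay below those at 0 h, and those at 12 h and 24 h above. The exact permutation test gave p = 0.1 (adjusted p = 0.167) at 6, 12 and 24 h here too.

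CDH1 (chromosome 16, 68737225 to 68835548, plus strand), the epithelial cadherin, had 4 to 16 counts per library and time means of 0.323 to 0.609 CPM. Its libraries overlapped with 0 h at every time but 1 h, where both (0.380 and 0.267 CPM) lay below 0.436 CPM, the lowest at 0 h. No comparison was called. At 24 h its log2 fold change of 0.0058 had a 95% interval of -0.98 to 0.99, which includes changes of nearly 2-fold either way. CDH2 (chromosome 18, 27950966 to 28177446, minus strand), the neural cadherin that replaces CDH1 in many carcinomas that undergo the transition, had 9 to 24 counts. Its time means were 0.778 to 1.14 CPM, and the 24 h log2 fold change of 0.39 had an interval of -0.35 to 1.13. TWIST1 (chromosome 7, 19020991 to 19117672, minus strand), with 0 counts, gives no comparison.

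**Figure D3:**
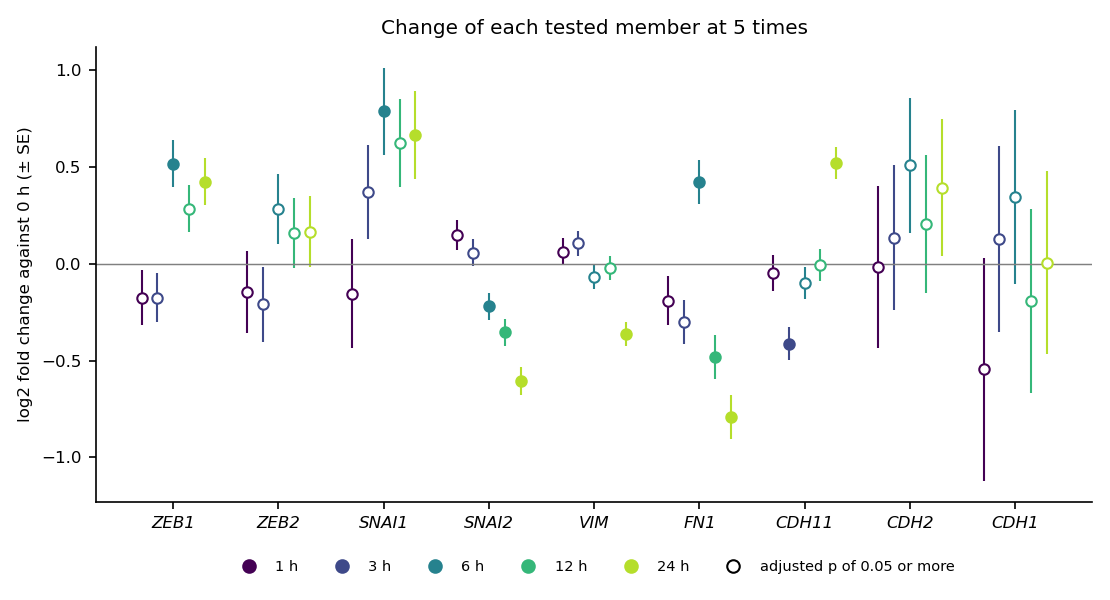
Log2 fold change against 0 h of the 9 tested genes at the 5 later times, with the standard error as bars; filled points passed the adjusted p of 0.05 and open points did not. ZEB1 and SNAI1 are above 0 and SNAI2 below 0 at 6, 12 and 24 h, FN1 goes from 0.42 at 6 h to -0.79 at 24 h, and CDH1 and CDH2 have the widest bars and only open points.

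Between neighbouring times, most calls fell in the step from 3 h to 6 h. There 4 of the 9 genes were higher (FN1, CDH11, ZEB1 and ZEB2, 22.9% of all genes) and 2 lower (VIM and SNAI2, 20.3%). From 1 h to 3 h, 0 were higher (3.17%) and 1 was lower (2.56%). From 6 h to 12 h, 0 were higher (8.70%) and 1, FN1, was lower (11.9%). From 12 h to 24 h, 1 was higher (CDH11, 6.42%) and 2 were lower (VIM and SNAI2, 5.60%). The SNAI2 step from 12 h to 24 h of -0.25 (adjusted p = 0.0283) was lost when scaled by library size only (0.0639), in a fit of only those groups (0.0628), with the close pairs averaged (0.122), and without 12 h replicate 1 (0.0566), 12 h replicate 3 (0.119), 24 h replicate 2 (0.1501) or 24 h replicate 3 (0.0796).

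**Figure D4:**
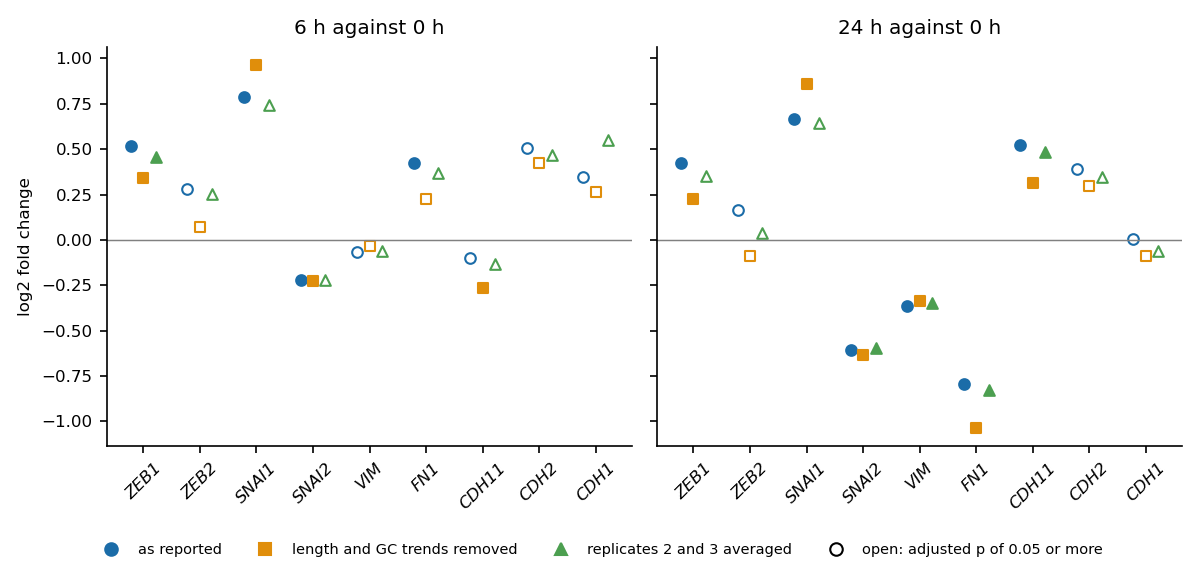
Log2 fold change of the 9 genes at 6 h and 24 h against 0 h in the reported fit and in fits with another treatment of the libraries. Removing length and GC trends lowers the values of ZEB1 (0.52 to 0.34 at 6 h) and of CDH11 (0.52 to 0.31 at 24 h), and ZEB2 at 24 h goes from 0.17 to -0.091.

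The genes whose log2 CPM followed FN1, CDH11 and SNAI1 most closely were taken from 11323 genes by Pearson correlation over the 17 libraries, which share the same time points and library effects. FN1 was most like MTHFD2 (r = 0.935), a mitochondrial folate enzyme, DYSF (0.925), a membrane repair protein, and COL6A3 (0.920), a chain of collagen VI. CDH11 was most like SKAP2 (0.969), an adaptor protein, SAMD9 (0.966), an antiviral factor, and BNIP3L (0.958), a mitophagy receptor. Genes most like SNAI1 included OTULIN (0.872), a deubiquitinase of linear ubiquitin chains, and CREB3 (0.855), a membrane-bound transcription factor. SKAP2 went from 16.6 CPM at 3 h to 36.8 CPM at 24 h in the means, where CDH11 went from 75.02 to 143 CPM.

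The lists of related genes are read against all genes tested, of which 16.9% rose and 13.2% fell at 6 h and 18.0% rose and 17.1% fell at 24 h. Among 14 other transcription factors of the transition, 8 had enough counts to be tested. At 6 h 0 rose and 2 fell, FOXQ1 (-0.74) and SIX2 (-0.35), and at 24 h 0 rose and 1 fell, SIX2 (-0.48). Both SIX2 calls were lost with length and GC trends removed (-0.20 and -0.29), and the one at 6 h also with the close pairs averaged (adjusted p = 0.108), under DESeq2 (0.0813) and with no filter (0.0738). The median log2 fold change of the 8 was 0.076 and -0.12. TWIST2 and GSC, like TWIST1, had 0 counts. Of 14 epithelial transcription and splicing factors only 6 were tested, since ESRP1, GRHL2, OVOL1 and OVOL2 had at most 3 counts in any library. At 6 h 1 rose and 1 fell, and at 24 h 2 rose and 0 fell (medians -0.061 and -0.063). ELF3, an epithelial ETS factor, fell at 6 h (-0.88, adjusted p = 0.00480) and rose at 24 h (0.64, adjusted p = 0.0118). Its relative EHF rose at 24 h (0.74, 34.3 to 57.3 CPM in the means), and KLF4 rose at 6 h (0.23), a call lost with the pairs averaged (adjusted p = 0.102), with upper-quartile scaling (0.0819) and with no filter (0.0646).

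Genes of the epithelial junctions and keratins, other than CDH1, did not move as one. Of 20 tested, 3 rose and 5 fell at 6 h (median -0.16), and 8 rose and 4 fell at 24 h (median 0.25). CLDN1, a tight-junction claudin, rose at both times (1.05 and 0.72, from 2.47 CPM at 0 h). TJP1, a tight-junction scaffold, rose at 6 h (0.44, or 0.27 with length and GC trends removed), while CLDN7 (-0.54) and the desmosomal PKP3 (-0.57) fell. With the pairs averaged the count that rose at 24 h was 4. Over all genes that setting called 3464 of 15292 at 24 h in either direction, against 5388 of 15365 as reported. At 24 h the desmosomal cadherin DSC2 rose (0.51), a call lost with the trends removed (0.25, adjusted p = 0.286), with the pairs averaged (0.123), under DESeq2 (0.110), with no filter (0.112) and in a fit of only those groups (0.0715), and the keratins KRT18 (-0.41) and KRT7 (-0.67, or -0.42 with the trends removed) fell.

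Of the catenins and other cadherin-linked adhesion genes, all 9 were tested. At 6 h 5 rose and 0 fell (median 0.21), among them AFDN (0.50) and VCL (0.43, or 0.26 with length and GC trends removed). At 24 h 6 rose and 0 fell (median 0.37), led by CTNNB1 (0.53, 252 to 364 CPM) and CTNND1 (0.48, or 0.31 with the trends removed), which bind the cadherin tail. Of 11 other cadherins only 2 were tested. At 6 h 0 rose and 0 fell (median -0.0014), and at 24 h CDH24 fell (-0.46, median -0.17).

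Other genes of the mesenchymal state rose more often than they fell at 6 h and fell more often than they rose at 24 h. Of 19 tested, 9 rose and 1 fell at 6 h (median 0.22), against 3 and 8 at 24 h (median -0.14). CALD1 (0.93) and TAGLN (0.64), which bind actin, rose most at 6 h, and S100A4 fell (-0.50, or -0.25 with the trends removed). At 24 h TGFBI, a matrix protein, fell from 318 to 177 CPM in the means (-0.84). MMP14 (0.38) and AXL (0.36) rose. Among receptors of fibronectin and partners of the vimentin network, 4 of 9 rose and 2 fell at 6 h, and 5 rose and 1 fell at 24 h (medians 0.18 and 0.16). The integrin chains ITGAV (0.61 and 0.56) and, at 24 h, ITGA5 (0.45) rose, and so did SDC4 at 6 h (0.56). With the pairs averaged only 1 rose at each time, and the calls of ITGAV were lost (adjusted p = 0.119 and 0.1503), as was the one at 24 h in a fit of only those groups (0.0707). Calls over all genes also became fewer with the pairs averaged. In either direction they went from 4627 to 2532 at 6 h and from 5388 to 3464 at 24 h. With the trends removed ITGAV at 24 h was 0.34. NES (-0.39) fell at 6 h and LMNA at both times (-0.26 and -0.19), the latter lost with the pairs averaged (adjusted p = 0.126), with the trends removed (0.171) and when scaled by library size only (0.168).

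Cofactors through which the Snail and ZEB proteins repress genes were all tested, 12 in number. At 6 h 5 rose and 1 fell, and at 24 h 4 rose and 1 fell (medians 0.094 and 0.13). RCOR1 rose at both times (0.43 and 0.36), SUZ12 at 6 h (0.47) and SIN3A at 24 h (0.39), while CTBP1 fell at both (-0.28 and -0.24). The SUZ12 call was lost with the pairs averaged (adjusted p = 0.0914), and with length and GC trends removed SIN3A and RCOR1 at 24 h were 0.22 and 0.20. The number that fell was 3 at 24 h with the trends removed, and 3 at 6 h with upper-quartile scaling. Over all genes these settings called 5249 and 4935 in either direction at those times, against 5388 and 4627 as reported. Of 10 genes that act on the turnover of the SNAI1 protein, 3 rose and 1 fell at each time (medians 0.16 and 0.11). FBXW11 (0.50 and 0.54) and, at 6 h, BTRC (0.35) encode ligase subunits that recognise phosphorylated SNAI1. GSK3B, the kinase that marks it, rose at 24 h (0.32), CTDSP1 fell at 6 h (-0.21) and PAK1 at 24 h (-0.25). With the trends removed 1 rose at 24 h, GSK3B (0.092, adjusted p = 0.242) and CTDSP1 (-0.093, adjusted p = 0.190) were no longer called, and BTRC was 0.21. CTDSP1 was also lost with no filter (0.0621) and PAK1 with library size only (0.0656). SNAI1 protein was not measured.

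**Figure D5:**
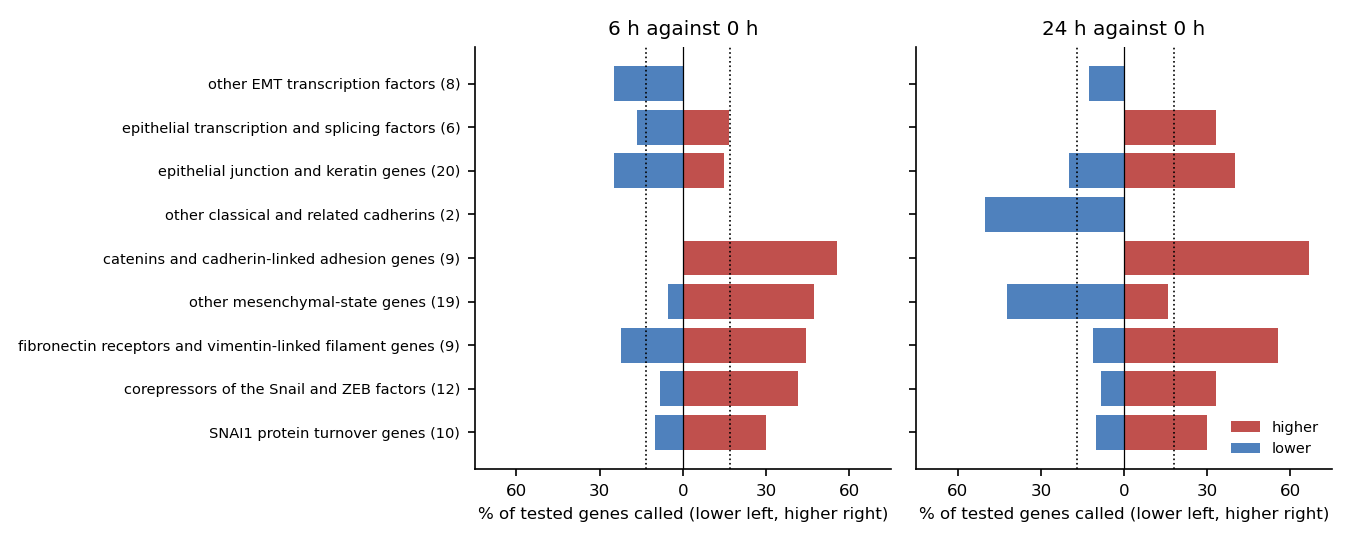
Percentage of the tested genes of each list that were called higher (right) or lower (left) than 0 h, at 6 h and 24 h; the dotted lines mark the shares of all genes tested. The catenin list has calls on the higher side only, and the other mesenchymal-state genes have 9 higher and 1 lower of 19 at 6 h against 3 and 8 at 24 h.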

How the data were processed

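Per the labels' protocols, RNA was made into paired-end libraries with a stranded mRNA kit. The authors deposited 1 table of expected counts per gene, made with RSEM per the file name and not scaled to depth or length, and 10.8% of the values were not whole. The submitters' processing notes name cutadapt 1.18, STAR 2.7.0f and hg38. Which gene annotation was counted, and with what strand setting, is not given in the sources used here. Positions are from GENCODE 29, which matched 58597 of the 58870 identifiers without their version.

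Expected counts were rounded. In edgeR 4.0.16 (R 4.3.3), filterByExpr with its minimum count of 10 selected genes, libraries were scaled by TMM, and 1 robust quasi-likelihood model with a mean for each time was fitted to all 17 libraries. Contrasts set each later time against 0 h and against its predecessor, and 1 F-test covered all times. Unless another tool is named, adjusted p-values are from edgeR's test with Benjamini-Hochberg adjustment. Total counts of 13731520 to 19234924 give a floor of 3 counts in a single library, or 0.151 to 0.233 CPM.

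The 10 genes and the lists were chosen with earlier results of these data known. All 10 genes are named. Of each list, the called genes with the 2 highest and the 2 lowest log2 fold changes at 6 h and at 24 h are named, as are a few members with too few counts to test. For the 3 tested genes with the widest range of time means of log2 CPM (prior count 2), the 3 best-correlated genes with a mean log2 CPM of 2 or more are named. A few genes that these rules would name are not reported here. Alternatives were RLE and upper-quartile scaling, library size only, no filter, genes with mean counts of 10 or more, limma-voom (limma 3.58.1), DESeq2 1.42.0, the replicate number as a block, non-robust estimation, unrounded counts, fits of the compared groups alone, the close replicate pairs averaged, length and GC trends removed (splines with 4 degrees of freedom, alone and with the block), and each library left out in turn. For the gene lists, the same alternatives without the left-out libraries were added after seeing the data.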

Additional observations from a re-analysis of the deposited data

How the results depend on the processing

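The calls of VIM, FN1 and CDH11 at 24 h, SNAI2 at 12 h and 24 h, CDH11 at 3 h and ZEB1 at 6 h held under every alternative and every left-out library. The number of genes lower at 3 h, 1 as reported, was 2 with upper-quartile scaling, with no filter, under DESeq2, and with length and GC trends removed, alone or with the replicate block. Over all genes these settings called 2743, 3159, 2670, 3946 and 4087 in either direction, against 2727 as reported. Averaging the close pairs gave 1 higher and 0 lower at 6 h, 1 higher at 24 h, 1 lower from 3 h to 6 h and 1 lower from 12 h to 24 h. Calls over all genes became fewer too. In either direction they were 2532, 3464, 5057 and 452 of 15292 in these comparisons, against 4627, 5388, 6640 and 1847 of 15365 as reported. No filter gave 0 lower at 6 h, 1 higher at 12 h, 1 lower from 3 h to 6 h and 2 lower from 6 h to 12 h. Of all 29899 genes tested without a filter, 4687, 2276, 6308 and 3308 were called in these comparisons. The reported fit called 1911 at 12 h and 3168 from 6 h to 12 h. Removing the trends, with or without the block, gave 2 lower at 6 h, 1 higher at 12 h, and 1 higher and 2 lower from 6 h to 12 h. Calls over all genes were 4561, 2482 and 4116 in these comparisons without the block, and 4684, 2542 and 4266 with it. Fits of only the groups compared gave 1 higher at 12 h (1936 of 14486 genes called) and 0 lower from 1 h to 3 h (312 of 14518, against 880 as reported). Scaling by library size only gave 1 lower from 3 h to 6 h (6744 genes called) and 1 lower from 12 h to 24 h (1897). With 1 library left out the counts ran from 1 to 2 lower at 3 h, 1 to 3 higher and 0 to 1 lower at 6 h, 0 to 1 higher and 1 to 2 lower at 12 h, and 1 to 3 higher at 24 h. They ran from 0 to 1 lower from 1 h to 3 h, 3 to 4 higher and 1 to 2 lower from 3 h to 6 h, and 1 to 3 lower from 12 h to 24 h. Calls over all genes also varied in these fits. They ran from 1412 to 3029 at 3 h, 2663 to 4970 at 6 h, 724 to 2147 at 12 h and 3444 to 5798 at 24 h. Between neighbouring times they ran from 271 to 975, 5023 to 6846 and 583 to 2789 in the same 3 steps.

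The replicate number was also fitted as a block. It moved 1 of 19 counts (2 lower at 3 h, FN1 at -0.30, adjusted p = 0.0459) and changed no other call of the 56 values. The log2 CPM deviations of libraries from their time means were correlated between libraries of different times. Pairs with the same number gave -0.20 to 0.21 (median 0.011, 40 pairs) and those with different numbers -0.16 to 0.20 (median -0.0086, 80 pairs). Deviations from a mean of 2 or 3 libraries offset each other within a time, so these values do not settle whether the numbers pair the samples.

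Values that were not called changed sign under some settings, and the cause was not tested. Scaling by library size only gave VIM at 12 h 0.010, CDH11 at 12 h 0.028 and SNAI2 at 3 h -0.014. CDH1 at 24 h was -0.017 with upper-quartile scaling, -0.069 with limma-voom, -0.060 with the pairs averaged, and -0.087 and -0.090 with the trends removed, alone and with the block. CDH2 at 1 h was 0.0051 with limma-voom, CDH11 at 1 h was 8.0e-04 with the trends removed and the block, and ZEB2 at 24 h was -0.091 and -0.094 with the trends removed, alone and with the block. With 1 library left out, VIM ran from -3.7e-04 to 0.12 at 1 h and from -0.052 to 0.0072 at 12 h. CDH1 ran from -0.085 to 0.43 at 3 h, -0.20 to 0.62 at 6 h and -0.40 to 0.24 at 24 h, and CDH2 from -0.11 to 0.18 at 1 h, -0.20 to 0.34 at 3 h and -0.15 to 0.42 at 12 h. CDH11 ran from -0.11 to 0.034 at 1 h and -0.068 to 0.072 at 12 h, SNAI1 from -0.37 to 0.062 at 1 h, and ZEB2 from -0.37 to 0.039 at 1 h and -0.090 to 0.38 at 24 h. TWIST1 had 0 counts, and CDH1, CDH2 and SNAI1 had no more than 16, 24 and 51 counts per library. In the gene lists, upper-quartile scaling gave 8 lower among the junction and keratin genes and 2 higher among the fibronectin receptor and filament genes at 6 h. Scaling by library size only gave, at 24 h, 7 higher among the cofactors and 5 higher among the other mesenchymal-state genes. Over all genes, upper-quartile scaling called 4935 at 6 h and library size only called 5602 at 24 h, against 4627 and 5388 as reported.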
